A study of Mus musculus with 28 samples.

Results

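The comparison described here set the vehicle libraries of day 3 against those of day 0 in DC2 cells, an immortalized line of epithelial cells that came from the distal caput of a mouse epididymis. Its members were the columns of the deposited log2 CPM table (CPM are counts scaled to the size of the library) that carry the vehicle label and day 3 or day 0, which gave 4 libraries of each day, 8 of the 28 libraries of the series. All 13128 genes of the table with a symbol were described. The day 3 cells had been at confluence for 3 days in medium with 0.1% ethanol, the solvent of the corticosterone used elsewhere in the study, and with no hormone. The day 0 cells were taken at confluence, at the medium change before treatment, and had received neither ethanol nor corticosterone. All cells grew on collagen in medium with serum and were detached with trypsin before freezing. Ethanol, time at confluence and time since the last medium change therefore cannot be told apart in any result. DC2 is 1 line, and the labels do not say whether replicates 3 to 6 were separate cultures. The p-values and standard errors of gene changes therefore measure the spread between libraries of the same group, which may be technical. That spread was estimated from all 28 libraries, including those given corticosterone, and not from these 8 alone.

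The caput epididymidis is lined by a tight epithelium that secretes proteins and vesicles into the lumen, moves ions and water, and matures sperm as they pass. In dense culture, epithelial cells are known to slow division through contact with neighbours, through loss of growth signals and through use of nutrients in the medium. Cell growth needs ribosome production and cyclin activity, while lysosomes break down cell material and are known to expand when growth signals are low.

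4789 of 13128 genes were higher at day 3 and 4294 were lower, at a Benjamini-Hochberg adjusted p under 0.05 in limma's moderated test. That is 36.5% and 32.7% of all genes tested, 69.2% in either direction, so that a call alone says little about a single gene. The counts of each list below have to be read against these shares. At least 2-fold changes were fewer, with 1212 genes higher (9.23%) and 864 lower (6.58%). The median change over all genes was 0.04 on the log2 scale, with quartiles of -0.37 and 0.45, against a median standard error (SE) of 0.09. The day 3 libraries summed to 949631 to 953926 CPM and the day 0 libraries to 1050030 to 1059930. Rescaling all libraries to an equal sum of CPM moved the median gene to 0.18, gave 6077 genes higher and 3253 lower and changed the share of higher genes among those called to 65.1%, against 52.7% with the deposited values. Changes near 0 therefore depend on the scaling, and so do counts by direction, and lists whose balance turns with the scaling are named as such. Any 2 libraries of the same day differed by a root mean square of 0.351 to 0.394 log2 units, and any 2 of different days by 0.829 to 0.890. Fewer cells with a transcript and less of it per cell cannot be told apart in such bulk libraries, and CPM do not show the RNA content of a cell.

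**Figure D1:**
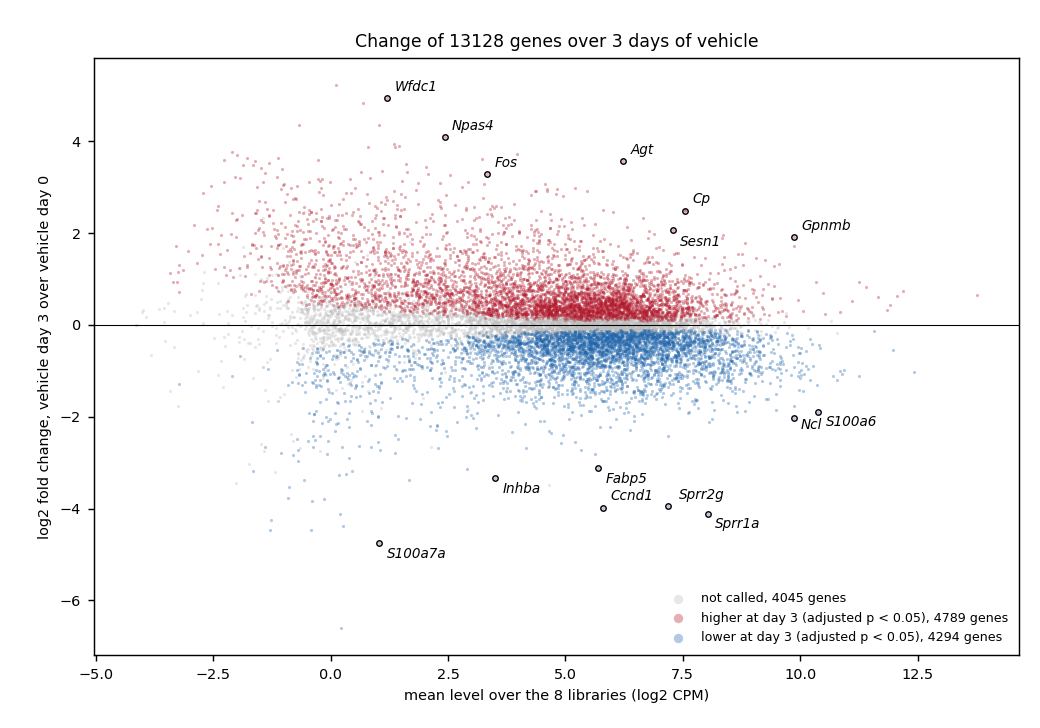
Each point is 1 of 13128 genes, with its mean level over the 8 libraries (log2 CPM) on the horizontal axis and its log2 fold change, vehicle day 3 over vehicle day 0, on the vertical axis. Coloured points were called at adjusted p under 0.05, and 15 genes described in the text are circled, from Wfdc1 at 4.95 to S100a7a at -4.75.

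The epithelial label was checked against marker genes. Among 11 markers of simple epithelium 7 were measured, and their summed level was 75.5 to 77.5 CPM in day 3 libraries, against 72.5 to 75.7 CPM in day 0 libraries. Cdh1 (E-cadherin, the adhesion protein of epithelial cells) stood at 3.06, 2.91, 2.70 and 2.89 log2 CPM in day 3 libraries, against 2.08, 1.74, 1.55 and 1.79 in day 0 libraries. It rose by 1.10 ± 0.13 (adjusted p = 1.7e-08), and every day 3 library was above every day 0 library. Of 7 measured keratin genes 4 fell, 2 were not called and Krt20 rose (0.67 ± 0.26, adjusted p = 0.024, but 0.0938 without day 0 replicate 4, 0.111 without day 3 replicate 6 and a change of -0.097 after quantile normalization). Krt18 changed by -0.87 ± 0.09 and Krt19 by -2.64 ± 0.29, and Krt8, the usual partner of Krt18, was at 0.14, 0.30, 0.32 and -0.09 log2 CPM in day 3 libraries, against 0.87, 0.93, 0.67 and 0.73 in day 0 libraries. The Krt8 call (adjusted p = 0.038) was lost on leaving out any 1 of 5 of the 8 libraries, with adjusted p of 0.0525 to 0.0994. Vim (vimentin, an intermediate filament of mesenchymal and of many cultured cells) was at 9.01, 9.05, 8.96 and 8.97 log2 CPM in day 3 libraries, against 10.73, 10.79, 10.77 and 10.73 in day 0 libraries, and fell by 1.76 on the log2 scale. None of the 13 markers of caput principal cells and none of the 7 of clear or narrow cells was among the genes analysed here. Every gene analysed was above 0 log2 CPM in at least 4 of the 28 libraries, so these markers may have been too low to be kept. How genes were chosen for the deposited values is not given here. The segment of origin was therefore not borne out by these markers. Of 8 fibroblast markers 4 were measured, and all 4 rose, with sums of 60.7 to 65.1 CPM in day 3 libraries and 25.6 to 27.7 CPM in day 0 libraries. They were Dcn (3.29 ± 0.10), Pdgfrb (0.98 ± 0.06), Col1a1 (0.75 ± 0.18) and Pdgfra (1.65 ± 0.47, with overlapping groups), of which Col1a1 and Pdgfra were not called after quantile normalization (adjusted p = 0.0579 and 0.0731), and their part in the results below was not tested. Of the macrophage markers Cd14 rose by 0.77 ± 0.09 and Csf1r fell by 2.04 on the log2 scale, with the sum of both at 39.9 to 45.7 CPM against 26.0 to 29.1 CPM at day 0. The markers of lymphocytes, endothelium and smooth muscle summed to at most 3.39 CPM in day 3 libraries and 3.63 CPM in day 0 libraries in any of these lists. The 1 measured germ cell marker, Ddx4, rose by 1.54 ± 0.19, at 1.34 to 1.98 CPM in day 3 libraries and 0.413 to 0.652 CPM in day 0 libraries. Of 2 measured basal cell markers Itga6 rose by 0.29 ± 0.12 with overlapping groups (adjusted p = 0.031, and 0.0542 to 0.115 without any 1 of 5 of the 8 libraries), and Itgb4 was not called, and their sum was 16.5 to 23.2 CPM in day 3 libraries, against 14.7 to 19.3 CPM in day 0 libraries.

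Among genes that averaged 1 log2 CPM or more in these 8 libraries, Wfdc1 rose most. This gene of a small secreted protease inhibitor was at 3.70, 3.52, 3.75 and 3.76 log2 CPM in day 3 libraries, against -1.03, -1.59, -0.98 and -1.46 in day 0 libraries. The change was 4.95 ± 0.14 log2 units (SE, n = 4 libraries a group, adjusted p = 3e-20), and the groups stood far apart. Scn3a (a voltage-gated sodium channel) rose by 4.36 ± 0.19, and Npas4 (a transcription factor induced by calcium entry) by 4.09 ± 0.19. Npas4 had 4.36, 4.42, 4.48 and 4.64 log2 CPM in day 3 libraries, against 0.82, -0.22, 0.06 and 0.86 in day 0 libraries. Secreted proteins were among the other large rises. Agt (angiotensinogen, the precursor of angiotensin) was at 7.92, 8.05, 8.03 and 8.04 log2 CPM in day 3 libraries, against 4.56, 4.25, 4.29 and 4.69 in day 0 libraries, a rise of 3.56 ± 0.09 with no overlap. C3 (the central complement protein) rose by 3.61 ± 0.17, and Dcn (decorin, a proteoglycan that binds collagen) by 3.29 ± 0.10. Enzymes among the 15 largest rises were Inmt (an amine methyltransferase, 3.72 ± 0.11), Acot11 (an acyl-CoA thioesterase, 3.89 ± 0.31), Bdh2 (a cytosolic hydroxybutyrate dehydrogenase, 3.51 ± 0.14) and Pde4c (a cyclic AMP phosphodiesterase, 3.32 ± 0.12). Atp1b2 (a beta subunit of the sodium pump) rose by 3.89 ± 0.22 and Srpk3 (a kinase of SR splicing proteins) by 3.43 ± 0.17. Also among the 15 were the interferon-induced Iigp1 (3.94 ± 0.19) and Ifit3b (3.34 ± 0.12) and the immediate early gene Fos (3.28 ± 0.15). For Wfdc1, Scn3a, Iigp1, Acot11, Atp1b2, Ifit3b, Bdh2 and Pde4c the day 0 mean lay under 0 log2 CPM, so the size of their folds is less certain than that of the others.

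The 15 largest falls included genes of the cornified envelope, of the cell cycle and of secreted factors. S100a7a (a calcium-binding protein of stressed squamous epithelium) was at -1.0, -1.39, -1.47 and -1.51 log2 CPM in day 3 libraries, against 3.49, 3.46, 3.25 and 3.44 in day 0 libraries. It fell by 4.75 ± 0.21 on the log2 scale (adjusted p = 1.1e-16). Sprr1a (a small proline-rich protein that is crosslinked under the surface of squamous cells) had 6.04, 5.96, 5.80 and 6.11 log2 CPM in day 3 libraries, against 9.90, 10.22, 10.19 and 10.07 in day 0 libraries. Sprr2g had 5.26, 5.25, 5.08 and 5.23 log2 CPM in day 3 libraries, against 9.06, 9.25, 9.22 and 9.11 in day 0 libraries. Both stood about 4 log2 units lower at day 3, with changes of -4.12 ± 0.18 and -3.95 ± 0.18, and no library of one day reached the range of the other. Of the 9 measured genes of the cornified envelope list 7 fell, 1 rose (Scel, 1.06 ± 0.09) and Ppl (periplakin) was not called, and the median of the list was -3.95, against 0.04 over all genes. Sprr2h, Sprr2a2 and Sprr2a1 changed by -4.47, -4.25 and -3.53, and since the Sprr2 genes are near copies of each other the reads could have been split between them. Lce1g, another late cornified envelope gene, had the largest fall of the table, -6.6 ± 0.35, with -1.94, -2.80, -3.42 and -4.15 log2 CPM in day 3 libraries, of which 1 is the lowest value of the table. It was named after its values were seen, since its mean was under the limit of the rule.

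Ccnd1 (cyclin D1, which carries growth signals to the cell cycle) had the third largest fall under the rule, with 3.84, 4.0, 3.62 and 3.82 log2 CPM in day 3 libraries, against 7.93, 7.70, 7.57 and 7.99 in day 0 libraries. The change was -3.98 ± 0.14 (adjusted p = 1.9e-18). Fosl1, an AP-1 subunit that responds to growth signals, fell by 2.56 ± 0.12 on the log2 scale. Inhba, which encodes the subunit of activin A, was at 1.58, 1.81, 1.92 and 2.02 log2 CPM in day 3 libraries, against 5.36, 5.02, 5.16 and 5.15 in day 0 libraries. Fst (follistatin, which binds activin) changed by -2.32 ± 0.20 in the same direction. Others of the 15 were Fabp5 (a fatty acid carrier, -3.13 ± 0.09), Kcnip1 (a subunit of potassium channels, -3.38 ± 0.15), Pcdh18 (a protocadherin, -3.14 ± 0.26), Ptx3 (a secreted pattern-recognition protein, -2.69 ± 0.13) and Siglecg (a sialic acid-binding receptor, -2.82 ± 0.27). Gja1 (connexin 43, the main gap junction protein of many cells) fell by 2.71 on the log2 scale and Cftr (the chloride channel mutated in cystic fibrosis) by 2.69. Ankrd55 and Arhgdig fell by 2.79 and 2.73 on the log2 scale. In all 15 the groups did not overlap, as the rule required. Over all genes the groups did not overlap for 4547 higher (34.6%) and 4220 lower genes (32.1%), 66.8% in all.

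Among genes with a mean of at least 7 log2 CPM the changes were smaller but the spread was narrow. Appl2 (an endosomal adaptor of receptor signalling) rose most, with 8.80, 8.74, 8.86 and 8.76 log2 CPM in day 3 libraries, against 6.43, 6.16, 6.14 and 6.41 in day 0 libraries, a change of 2.51 ± 0.06. Cp (ceruloplasmin, a copper enzyme that oxidizes iron) rose by 2.49 ± 0.07. Sesn1 (sestrin 1, which holds back growth when amino acids are short) was at 8.32, 8.30, 8.32 and 8.30 log2 CPM in day 3 libraries, against 6.33, 6.26, 6.22 and 6.19 in day 0 libraries. Its day 3 libraries lay within 0.02 log2 units and about 2 log2 units above day 0. Txnip (which restrains glucose uptake) rose by 1.96 ± 0.07, Gpnmb (a lysosomal and surface glycoprotein) by 1.92 ± 0.07, Vldlr (a lipoprotein receptor) by 1.89 ± 0.09 and Ndrg1 (induced by low oxygen and by differentiation) by 1.79 ± 0.06. Ivns1abp, Klhl24 and Uap1l1 completed the 10 with 1.71, 1.63 and 1.57. On the other side, Ncl (nucleolin, an abundant protein of the nucleolus) was at 8.85, 8.80, 8.92 and 8.81 log2 CPM in day 3 libraries, against 10.88, 10.84, 10.88 and 10.89 in day 0 libraries. The change of -2.03 ± 0.04 had the smallest SE of the 10 falls. Mybbp1a (-2.05 ± 0.06) and Nop56 (-1.91 ± 0.08) are also nucleolar proteins, and Kpna2 (-1.89 ± 0.06) carries proteins into the nucleus. Anxa2 (-1.90 ± 0.07) and S100a6 (-1.89 ± 0.10) bind calcium, and Ccdc80 (-2.43 ± 0.13) is a matrix protein.

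**Figure D2:**
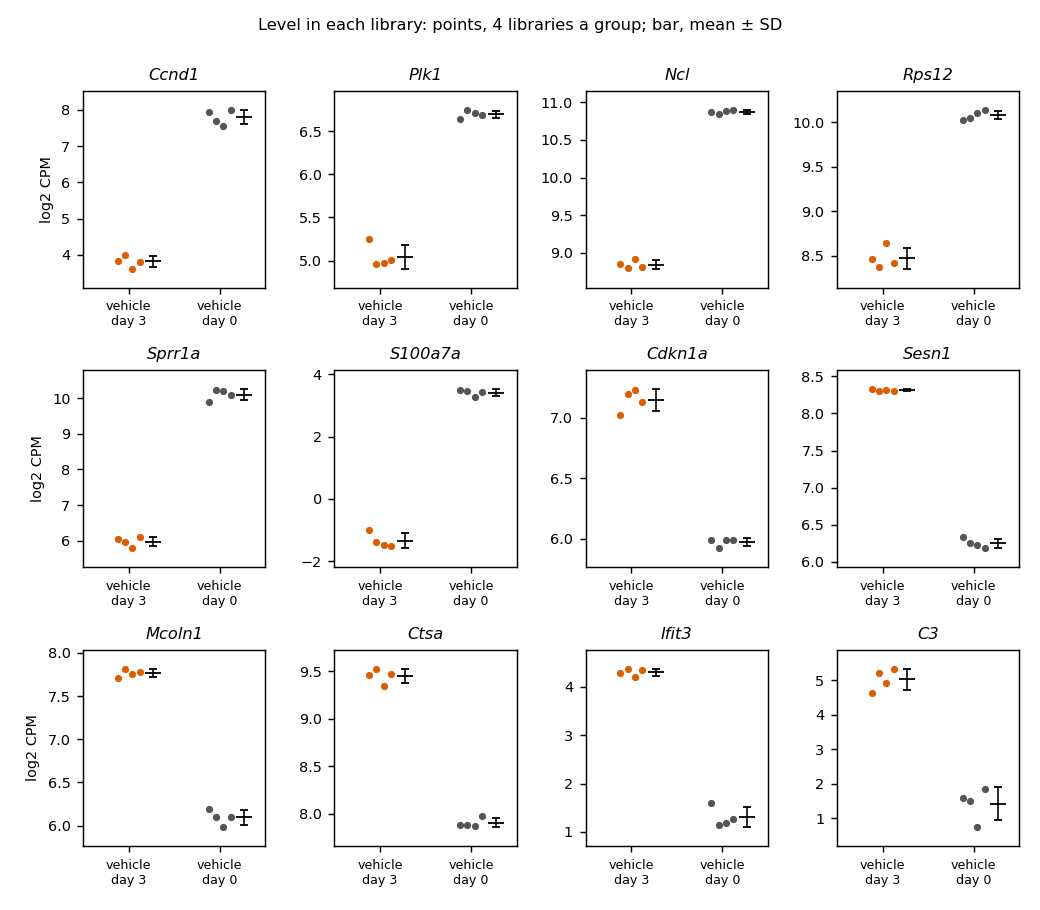
Level of 12 genes in each library (log2 CPM, vertical axes that do not start at 0), with vehicle day 3 left of vehicle day 0, 4 points a group and the mean ± SD beside them. In each panel the groups are apart, as for Ncl with 8.85, 8.80, 8.92 and 8.81 in day 3 libraries and 10.88, 10.84, 10.88 and 10.89 in day 0 libraries.

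Genes of cell division fell together. Of 75 measured genes of mitosis, 74 fell and 1 rose, with a median of -1.31, and 64 fell at least 2-fold. Pttg1 (securin, which blocks the enzyme that parts sister chromatids) was the exception, with 4.90, 5.01, 5.07 and 4.86 log2 CPM in day 3 libraries, against 4.40, 4.66, 4.57 and 4.39 in day 0 libraries, a change of 0.45 ± 0.11 (adjusted p = 0.00083). Plk1 (polo-like kinase 1, which drives entry into mitosis) had 5.24, 4.96, 4.97 and 5.0 log2 CPM in day 3 libraries, against 6.64, 6.75, 6.71 and 6.69 in day 0 libraries. It fell by 1.65 ± 0.07 on the log2 scale, with no overlap. Ccna2 (cyclin A2) changed by -1.66 ± 0.07, Kif20a (a kinesin of cytokinesis) by -1.64 ± 0.06, Kif11 (the kinesin that separates spindle poles) by -1.49 ± 0.06 and Incenp (the scaffold of Aurora B) by -1.29 ± 0.05. Top2a (-1.49 ± 0.08), the gene of the enzyme that untangles DNA, and Mki67 (-1.21 ± 0.07), that of the proliferation marker Ki-67, fell too, and their day 3 means were 7.87 and 7.92 log2 CPM. The mean over the list averaged 5.52 ± 0.08 log2 CPM in day 3 libraries and 6.82 ± 0.03 in day 0 libraries (SD, n = 4 each).

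Promoter windows of the RefSeq annotation (GRCm38.p6, 250 bases before to 50 after a gene's start) were available for 10074 of the 13128 genes. They are shown for 1 or 2 genes of each of 5 lists whose members mostly moved one way, with matches in capitals. For mitosis, the letters TTTGAA, the cell cycle homology region bound by complexes that repress such genes in resting cells, were searched on both strands. A match was present for 42 of 63 members with a window (66.7%), against 14.5% of all genes. Kif11 lies at chr19:37376132-37376431 (+) and Plk1 at chr7:122159185-122159484 (+), and the windows were as follows.
Kif11: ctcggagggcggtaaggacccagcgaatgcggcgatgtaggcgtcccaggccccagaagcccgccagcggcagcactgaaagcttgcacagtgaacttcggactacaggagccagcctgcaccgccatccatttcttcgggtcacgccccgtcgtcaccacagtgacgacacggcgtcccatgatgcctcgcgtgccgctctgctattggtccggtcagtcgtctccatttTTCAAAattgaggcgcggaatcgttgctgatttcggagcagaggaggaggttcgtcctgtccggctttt
Plk1: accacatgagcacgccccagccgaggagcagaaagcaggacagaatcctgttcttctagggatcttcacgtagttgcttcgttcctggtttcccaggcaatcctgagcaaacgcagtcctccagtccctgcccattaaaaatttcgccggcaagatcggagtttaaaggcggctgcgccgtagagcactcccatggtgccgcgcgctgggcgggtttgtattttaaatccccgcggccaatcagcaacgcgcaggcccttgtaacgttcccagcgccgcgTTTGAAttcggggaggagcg
The Kif11 match, which reads TTCAAA on the strand shown, begins 19 bases before the start, and that of Plk1 begins at base 31 after it. Genes of all kinds with a match, list members included, were lower in 38.8% and higher in 30.9% of cases, and those without one in 32.5% and 37.5%. A match is a description of the letters and shows no binding.

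DNA replication genes changed less. Of 48 members 32 fell, 15 were not called and 1 rose (Chaf1b, 0.17 ± 0.07, adjusted p = 0.047, and 0.0568 to 0.126 without any 1 of 7 of the 8 libraries), with a median of -0.39 and only 2 members down at least 2-fold. Those were Mcm10 (-1.43 ± 0.15), which is needed to start replication, and Clspn (claspin, a checkpoint mediator, -1.15 ± 0.09). Mcm5, a subunit of the replicative helicase, was at 7.02, 7.12, 7.12 and 7.11 log2 CPM in day 3 libraries, against 7.74, 7.77, 7.77 and 7.76 in day 0 libraries, a change of -0.66 ± 0.05. The E2F letters TTTNNCGC, searched on both strands, were present in 17 of 38 members with a window (44.7%), against 9.78% of all genes. The window of Mcm5 (chr8:75109259-75109558, +) holds 2 overlapping matches, the first beginning 153 bases before the start.
Mcm5: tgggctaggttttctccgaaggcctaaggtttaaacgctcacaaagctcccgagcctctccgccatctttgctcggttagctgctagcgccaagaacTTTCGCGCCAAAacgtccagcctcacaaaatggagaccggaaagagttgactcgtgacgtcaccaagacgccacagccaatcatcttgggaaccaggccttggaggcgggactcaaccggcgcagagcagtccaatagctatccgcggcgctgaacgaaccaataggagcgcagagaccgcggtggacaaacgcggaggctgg
Of 26 genes of nucleotide synthesis 25 fell (median -0.86). Rrm2 (the regulated subunit of ribonucleotide reductase) was at 5.63, 5.71, 5.62 and 5.66 log2 CPM in day 3 libraries, against 7.57, 7.62, 7.59 and 7.57 in day 0 libraries. Ctps (CTP synthase) changed by -1.56 ± 0.04, Atic (the last enzyme of purine synthesis) by -1.52 ± 0.04, Tk1 (thymidine kinase) by -1.33 ± 0.06 and Cad (the first enzyme of pyrimidine synthesis) by -1.29 ± 0.07.

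The regulators of G1, the phase in which a cell commits to division, moved both ways. Of 33 measured genes 16 fell, 11 rose and 6 were not called, which is 48.5% lower and 33.3% higher. Those that fell included Ccnd1 as above, Ccnd2 (-1.43 ± 0.09), Myc (-1.19 ± 0.10), E2f7 (-1.20 ± 0.07) and Skp2 (which marks p27 for breakdown, -1.01 ± 0.06). Those that rose included 2 inhibitors of cyclin-dependent kinases. Cdkn1a (p21) was at 7.02, 7.20, 7.23 and 7.13 log2 CPM in day 3 libraries, against 5.99, 5.93, 5.99 and 5.99 in day 0 libraries. Cdkn1b (p27) was at 7.65, 7.56, 7.69 and 7.56 log2 CPM in day 3 libraries, against 6.54, 6.55, 6.52 and 6.51 in day 0 libraries. Both were about 1 log2 unit higher at day 3, by 1.17 ± 0.07 and 1.08 ± 0.07, as were Rb1 (the retinoblastoma protein, 1.09 ± 0.15) and Mxd1 (1.30 ± 0.06), an antagonist of Myc. Ccne1 (-0.16, adjusted p = 0.064, and 0.0218 without day 0 replicate 6) and Cdkn2a (0.21, adjusted p = 0.12) did not pass the threshold.

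Genes of ribosome production fell. All 55 measured genes of the ribosome biogenesis list were lower, with a median of -1.38 and 44 down at least 2-fold. Rrp12 (which exports ribosomal subunits, -1.78 ± 0.05), Nop2 (an RNA methyltransferase of the large subunit, -1.46 ± 0.05) and Polr1b (the second subunit of RNA polymerase I, -1.51 ± 0.06) stood beside Ncl and Mybbp1a. All 81 cytosolic ribosomal protein genes fell too, with a median of -0.98, and they took 2.68 to 2.90% of the CPM of day 3 libraries, against 4.88 to 5.07% of day 0 libraries. Rps12 was at 8.46, 8.37, 8.64 and 8.41 log2 CPM in day 3 libraries, against 10.03, 10.05, 10.11 and 10.14 in day 0 libraries. Rplp0 was at 10.69, 10.69, 10.73 and 10.66 log2 CPM in day 3 libraries, against 11.79, 11.84, 11.82 and 11.81 in day 0 libraries. The ranges did not overlap for either gene. Ribosomal protein genes have many processed copies in the mouse genome, so their reads could have been shared with them. These counts held when all libraries were rescaled to an equal sum, with 55 of 55 and 81 of 81 lower.

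Nop2 is shown for the E-box letters CACGTG, which Myc and related proteins bind, since its window holds one match that begins 60 bases before the start (chr6:125131633-125131932, +).
Nop2: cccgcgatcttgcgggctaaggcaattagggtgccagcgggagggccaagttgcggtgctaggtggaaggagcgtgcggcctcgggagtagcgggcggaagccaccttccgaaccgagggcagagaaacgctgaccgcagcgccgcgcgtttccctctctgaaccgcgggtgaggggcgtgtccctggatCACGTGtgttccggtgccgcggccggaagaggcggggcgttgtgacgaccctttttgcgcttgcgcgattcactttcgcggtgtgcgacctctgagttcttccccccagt
Of 48 ribosome biogenesis members with a window 13 had this match (27.1%), against 11.6% of all genes. Genes with the match, list members included, were lower in 35.4% and higher in 38.2%, and those without in 33.2% and 36.3%. Over all genes the match thus went with little difference in calls.

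Lysosomal genes rose together. Of 49 measured members 47 were higher, 1 lower (Gusb, -0.19 ± 0.05, adjusted p = 0.455 after rescaling) and 1 not called, with a median of 0.87 and 18 at least 2-fold higher. Mcoln1 (the calcium channel mucolipin 1 of the lysosome membrane) was at 7.70, 7.82, 7.75 and 7.77 log2 CPM in day 3 libraries, against 6.19, 6.1, 5.98 and 6.1 in day 0 libraries. Ctsa (cathepsin A) was at 9.46, 9.52, 9.35 and 9.47 log2 CPM in day 3 libraries, against 7.88, 7.88, 7.87 and 7.97 in day 0 libraries. The change was 1.67 ± 0.05 for Mcoln1 and 1.55 ± 0.05 for Ctsa, with no overlap. Enzymes that break down sugars and glycans followed, with Hexa at 1.56 ± 0.06, Man2b1 at 1.19 ± 0.05 and Galns at 1.21 ± 0.05. Cd68, a lysosomal membrane protein that is also a macrophage marker, rose by 1.95 ± 0.10. Tfeb, the transcription factor that activates lysosomal genes, was higher by 1.11 ± 0.13 and its relative Mitf by 0.82 ± 0.14, while Tfe3 differed by 0.14 ± 0.05 (adjusted p = 0.024, and 0.0593 without day 3 replicate 4, 0.0609 without day 0 replicate 5). The list mean was 7.31 ± 0.01 log2 CPM in day 3 libraries and 6.41 ± 0.03 in day 0 libraries (SD, n = 4 each).

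The letters TCACGTGA, the core of the element that TFEB and its relatives recognise and which holds an E-box in its centre, were present in 7 of 39 lysosomal members with a window (17.9%), against 2.12% of all genes. Mcoln1 (chr8:3500269-3500568, +) has its match 46 bases before the start and Atp6v0d1 (a subunit of the proton pump, chr8:105566015-105566314, -) 4 bases before it.
Mcoln1: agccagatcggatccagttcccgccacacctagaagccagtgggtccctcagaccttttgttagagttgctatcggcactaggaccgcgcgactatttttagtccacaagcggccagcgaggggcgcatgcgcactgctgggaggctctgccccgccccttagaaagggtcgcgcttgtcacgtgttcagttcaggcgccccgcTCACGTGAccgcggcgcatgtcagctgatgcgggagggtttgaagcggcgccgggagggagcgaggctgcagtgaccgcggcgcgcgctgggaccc
Atp6v0d1: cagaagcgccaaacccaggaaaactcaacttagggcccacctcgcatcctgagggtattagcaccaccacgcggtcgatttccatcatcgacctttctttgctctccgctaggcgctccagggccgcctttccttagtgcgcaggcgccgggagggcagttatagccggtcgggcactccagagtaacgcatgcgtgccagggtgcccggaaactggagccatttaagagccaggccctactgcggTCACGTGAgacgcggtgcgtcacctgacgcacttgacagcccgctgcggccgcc
Atp6v0d1 rose by 0.99 ± 0.06. Of all genes with the match, list members included, 43.9% were higher and 29.9% lower, against 36.4% and 33.5% of those without.

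Of 28 autophagy genes 19 rose, 5 fell and 4 were not called (median 0.44). Map1lc3b, which coats autophagosomes, was at 7.71, 7.65, 7.93 and 7.83 log2 CPM in day 3 libraries, against 6.80, 6.91, 6.94 and 6.94 in day 0 libraries, and Calcoco1 rose by 1.15 ± 0.06 and Gabarapl1 by 1.18 ± 0.10. Atg3, which attaches such proteins to lipid, fell by 0.77 on the log2 scale. Targets of FOXO factors, which act when insulin signalling is low, counted 19 of 24 higher and 3 lower (median 0.96). Pik3ip1, an inhibitor of PI3-kinase, was at 7.13, 7.07, 7.12 and 6.90 log2 CPM in day 3 libraries, against 4.44, 4.70, 4.27 and 4.82 in day 0 libraries. Klf15 rose by 2.42 ± 0.12, Foxo3 by 1.33 ± 0.07 and Erbb3 by 1.67 ± 0.07, and Cited2 fell by 1.29 on the log2 scale.

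Interferon-stimulated genes, which defend cells against viruses, rose. Of 59 measured members 49 were higher, 5 lower and 5 not called, with a median of 1.17 and 34 at least 2-fold higher. Ifit3 was at 4.29, 4.37, 4.20 and 4.34 log2 CPM in day 3 libraries, against 1.60, 1.15, 1.19 and 1.27 in day 0 libraries. Ifit1, which binds foreign RNA ends, was at 4.88, 4.90, 5.01 and 4.99 log2 CPM in day 3 libraries, against 2.87, 2.72, 2.62 and 2.76 in day 0 libraries. Ifit3 and the near-identical Ifit3b could share reads, and both were higher, by 3.0 ± 0.10 and 3.34 ± 0.12. Irgm2 (an immunity-related GTPase) rose by 2.02 ± 0.07 and Isg15 (a ubiquitin-like modifier) by 1.38 ± 0.11. Isg20, a nuclease, was among the 5 that fell (-0.50 ± 0.11). Levels of many members were low, with a list mean of 3.93 ± 0.03 log2 CPM in day 3 libraries and 2.70 ± 0.08 in day 0 libraries.

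The interferon-stimulated response element, searched as GAAA, any 2 bases and GAAA on both strands, was present in 25 of 46 members with a window (54.3%), against 3.70% of all genes. Ifit3 (chr19:34583279-34583578, +) holds 2 matches, the first 156 bases before the start, and Irgm2 (chr11:58214727-58215026, +) 1 match 64 bases before it.
Ifit3: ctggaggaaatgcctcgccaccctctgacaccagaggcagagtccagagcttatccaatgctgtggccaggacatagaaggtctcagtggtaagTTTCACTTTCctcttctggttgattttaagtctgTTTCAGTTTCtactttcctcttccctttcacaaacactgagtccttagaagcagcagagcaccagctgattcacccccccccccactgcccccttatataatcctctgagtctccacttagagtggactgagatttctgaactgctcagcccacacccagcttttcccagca
Irgm2: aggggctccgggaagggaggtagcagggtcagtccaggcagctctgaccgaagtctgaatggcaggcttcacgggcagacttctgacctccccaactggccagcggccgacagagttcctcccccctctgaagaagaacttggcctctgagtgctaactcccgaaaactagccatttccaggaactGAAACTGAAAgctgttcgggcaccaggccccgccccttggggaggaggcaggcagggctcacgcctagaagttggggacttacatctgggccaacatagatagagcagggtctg
In Ifit3 the letters lie on the strand opposite to the one shown. Genes with the match were higher in 40.0% and lower in 31.6% of cases, and those without in 36.4% and 33.5%. The genes with the match include the 25 list members, so the list itself is part of this difference. Shares without the list members were not computed.

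**Figure D3:**
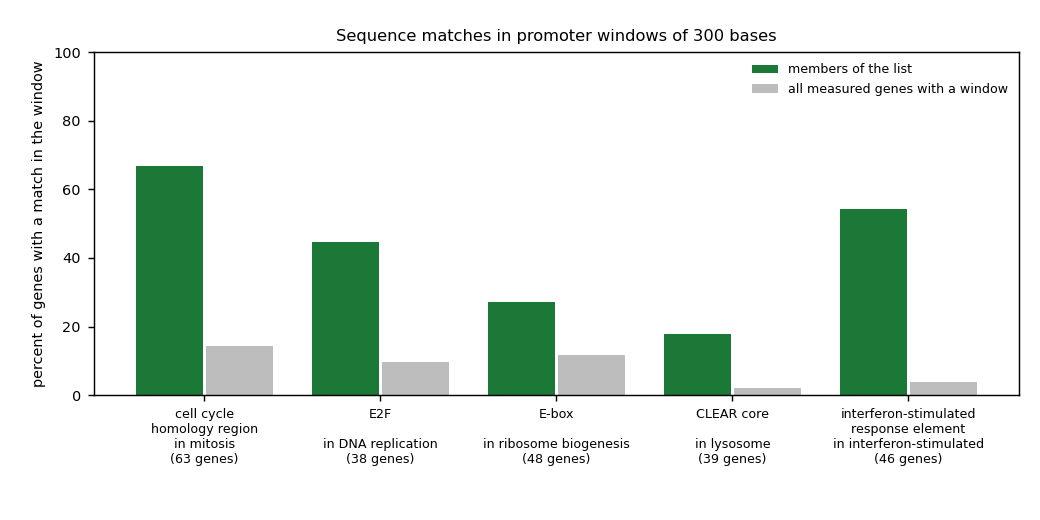
Percent of genes with a match of the named letters in the 300-base promoter window, for members of 5 lists (green, number with a window in brackets) and for all 10074 measured genes with a window (grey). The share is higher in each list than over all genes, from 66.7% against 14.5% in mitosis to 27.1% against 11.6% in ribosome biogenesis.

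Antigen presentation and complement genes were also mostly higher. Of 21 genes of MHC class I and antigen processing 12 rose and 3 fell, the 3 being the chaperone genes Canx, Pdia3 and Calr, none of which was called after quantile normalization. B2m (the light chain of MHC class I) was at 7.79, 7.78, 7.84 and 7.69 log2 CPM in day 3 libraries, against 6.64, 6.67, 6.62 and 6.64 in day 0 libraries, a rise of 1.14 ± 0.08. Tap1 (2.05 ± 0.15) and Tap2 (2.26 ± 0.18) load peptides, and Psmb8 (2.57 ± 0.20) and Psmb9 (2.43 ± 0.20) are subunits of the immunoproteasome. H2 genes are similar in sequence, and their separate values are uncertain. Of 16 listed genes of complement and its inhibitors 11 were measured, and all 11 rose (median 1.73). A gene low at day 0 could be among those measured through other libraries in which it was high, so this count may lean towards rises. C1s1 (a protease of the C1 complex) was at 6.28, 6.45, 6.28 and 6.37 log2 CPM in day 3 libraries, against 3.86, 3.58, 2.94 and 3.76 in day 0 libraries, and Clu (clusterin, which is secreted in the epididymis) at 4.85, 4.64, 4.88 and 4.57 log2 CPM in day 3 libraries, against 2.31, 2.15, 2.33 and 1.78 in day 0 libraries. Both groups of values were apart, with changes of 2.81 ± 0.11 and 2.59 ± 0.12. Chemokine and cytokine genes counted 8 higher (36.4%) and 10 lower (45.5%) of 22, against 36.5% and 32.7% over all genes. After rescaling they counted 8 higher and 6 lower. Cx3cl1 was at 1.51 ± 0.09 and Csf1 at -1.77 ± 0.08. NF-kB feedback genes counted 7 higher and 5 lower of 19 (36.8% and 26.3%, against 36.5% and 32.7% over all genes). Of these the inhibitor gene Tnfaip3 fell by 1.40 on the log2 scale.

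**Figure D4:**
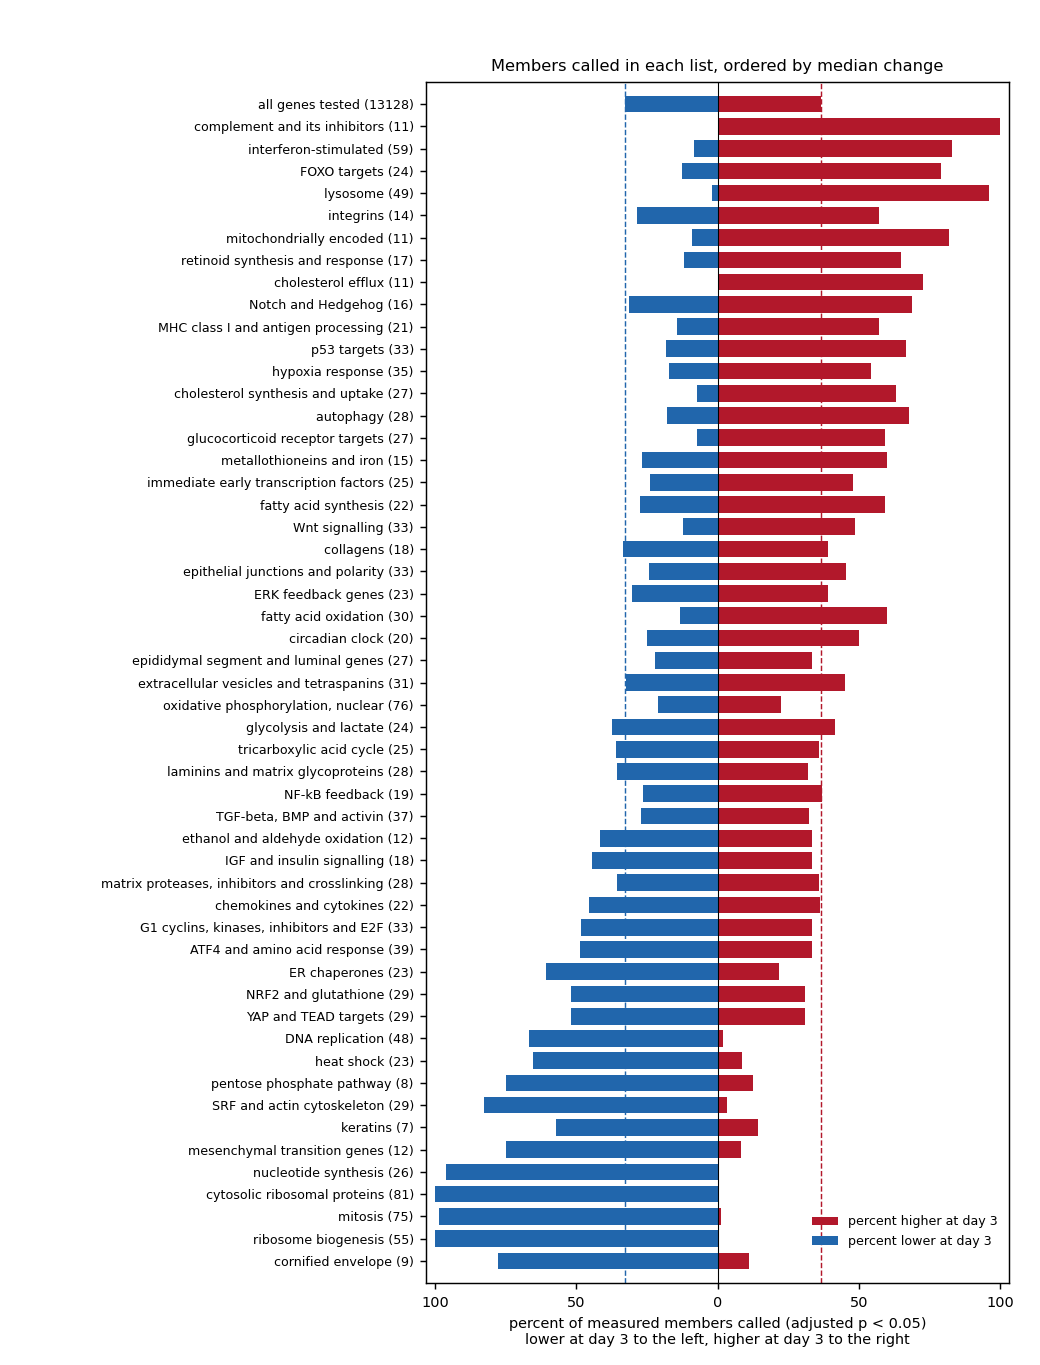
Percent of the measured members of 52 gene lists (number in brackets) called lower at day 3 (blue, to the left) and higher at day 3 (red, to the right), with all 13128 genes in the top row and as dashed lines. Lists are ordered by their median change, from complement at 1.73 to the cornified envelope at -3.95.

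Lists tied to growth signals, to p53 and to the cytoskeleton were lower, mixed or more often higher. Of 29 targets of SRF and genes of the actin cytoskeleton 24 fell, 4 were not called and 1 rose (Myl9, 0.98 ± 0.26, adjusted p = 0.0019, and 0.0542 after quantile normalization), with a median of -0.62. Actb (beta actin) was at 10.32, 10.38, 10.31 and 10.39 log2 CPM in day 3 libraries, against 11.36, 11.43, 11.41 and 11.45 in day 0 libraries, a change of -1.06 ± 0.06, and Actn1 (alpha-actinin 1) changed by -1.44 ± 0.12. YAP and TEAD targets, which respond to cell density and tension, had 15 lower, 9 higher and 5 not called of 29. Igfbp3 (-2.48 ± 0.16) and Ankrd1 (-1.17 ± 0.06) fell, whereas Fgf1 (2.63 ± 0.17) and Nt5e (2.42 ± 0.07) rose, and Ccn2 (0.15, adjusted p = 0.13, and 0.0461 without day 0 replicate 6) was not called. Feedback genes of ERK signalling counted 9 higher and 7 lower of 23 (7 each after quantile normalization). That is 39.1% and 30.4%, against 36.5% and 32.7% over all genes. Among them the receptor gene Epha2 fell most, by 2.29 ± 0.08 on the log2 scale. Among 25 immediate early transcription factor genes 12 rose and 6 fell. Fos had 5.18, 4.65, 4.96 and 5.12 log2 CPM in day 3 libraries, against 1.38, 1.76, 1.51 and 2.14 in day 0 libraries. Fosb (2.84 ± 0.19), Egr1 (1.48 ± 0.10), Zfp36 (2.10 ± 0.11) and Btg2 (1.88 ± 0.07) also rose, while Fosl1, Fosl2 (-1.35), Myc and Klf2 (-1.03) fell, so that 2 members of the same AP-1 family, Fos and Fosl1, stood at 3.28 and -2.56. Of 33 p53 targets 22 rose and 6 fell (median 0.52). Trp53inp1 (2.12 ± 0.12), Fas (2.25 ± 0.19) and Ddb2 (0.89 ± 0.06) rose beside Sesn1 and Cdkn1a, while Mdm2, the negative regulator of p53, was at 0.15 (adjusted p = 0.14) and Plk2 fell by 1.58 on the log2 scale.

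In metabolism, the mitochondrially encoded transcripts took 5.31 ± 0.11% of CPM in day 3 libraries and 3.28 ± 0.05% in day 0 libraries (SD, n = 4 each). Every day 3 library was above every day 0 library, and the two-sided exact permutation p of 0.0286 is the smallest that 4 against 4 can give. The difference of 2.03 percentage points was 1.15 after quantile normalization. That method gives each rank the same value in every library, so it can narrow differences among the most abundant genes. Of the 11 genes 9 rose, with mt-Nd6 at 1.02 ± 0.14 and mt-Co1 at 0.66 ± 0.05. The change of mt-Co1 became 0.00 after quantile normalization, the value which that method fixes for any gene that keeps its rank. The 1 that fell, mt-Nd1, changed by -0.14 ± 0.05, by 0.01 after rescaling, and was not called without day 0 replicate 4 or day 3 replicate 6 (adjusted p = 0.0618 and 0.0772). The nuclear genes of oxidative phosphorylation did not move with them as a group in the deposited values. Of 76, 17 rose, 16 fell and 43 were not called (median 0.04), none by 2-fold. This balance can turn with the scaling, since rescaling to an equal sum raised every change and moved the median gene from 0.04 to 0.18. Glycolysis and lactate genes had 10 higher (41.7%) and 9 lower (37.5%) of 24, near the 36.5% and 32.7% over all genes. Ldha (-1.22 ± 0.08), Pgk1 (-1.19 ± 0.09) and Gapdh (-1.10 ± 0.07) fell, and Ldhb (2.25 ± 0.12), Aldoc (2.11 ± 0.15) and Eno2 (1.41 ± 0.11) rose. Of 8 genes of the pentose phosphate pathway 6 fell, with Pgd (which makes NADPH) at -1.10 ± 0.04.

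Lipid genes were mostly higher. Of 27 genes of cholesterol synthesis and uptake 17 rose and 2 fell (median 0.44), among them Insig1 (1.69 ± 0.06), which holds back the SREBP activator, Fdps (1.35 ± 0.09) and Cyp51 (0.88 ± 0.05). Insig1 was at 7.88, 7.83, 7.83 and 7.78 log2 CPM in day 3 libraries, against 6.21, 6.15, 6.11 and 6.07 in day 0 libraries. Every day 3 library was above every day 0 library. Of 11 cholesterol efflux genes 8 rose, with Abca1 at 1.61 ± 0.16 and Npc2 at 0.97 ± 0.07, and 18 of 30 genes of fatty acid oxidation rose, with Pdk2 (which slows entry of pyruvate) at 1.95 ± 0.08. Since ethanol was present only at day 3, genes that oxidize ethanol and its products were listed too. Of 12 measured 5 fell, 4 rose and 3 were not called, with a median of 0.00 (3 lower and 4 higher after rescaling). Acss2 (which makes acetyl-CoA from acetate) was at 5.0, 5.08, 5.04 and 5.0 log2 CPM in day 3 libraries, against 3.89, 3.74, 3.64 and 3.48 in day 0 libraries. Adh7 (an alcohol dehydrogenase) fell by 0.87 ± 0.12 on the log2 scale, Aldh1a1 by 0.71, and Aldh2, the main enzyme that removes acetaldehyde, changed by 0.29 ± 0.08.

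Stress responses did not share a direction. Heat shock genes were lower in 15 of 23 cases and higher in 2 (median -0.40). Hspd1 (the chaperone HSP60 of mitochondria) was at 8.29, 8.27, 8.25 and 8.18 log2 CPM in day 3 libraries, against 9.84, 9.78, 9.78 and 9.81 in day 0 libraries. ER chaperone genes were lower in 14 of 23 and higher in 5 (10 and 6, with a median of 0.01, after quantile normalization), with Hspa5 (BiP) at -0.59 ± 0.07. In the list of ATF4 and the amino acid response 19 of 39 fell and 13 rose (17 and 16 after quantile normalization). Its biosynthetic members Psat1 (-1.63 ± 0.05) and Asns (-0.98 ± 0.05) fell while Ddit3, the transcription factor CHOP, rose by 1.58 ± 0.07. NRF2 and glutathione genes were lower in 15 of 29 and higher in 9, with Txn1 (thioredoxin, -1.38 ± 0.09) on one side and Mgst1 (1.86 ± 0.07) and Gclc (0.73 ± 0.06) on the other. Of 35 hypoxia response genes 19 rose and 6 fell, with Vegfa at 0.80 ± 0.06 and Lox at -1.56 ± 0.09. Of 15 measured genes of the list of metallothioneins and iron 9 rose, 4 fell and 2 were not called (median 0.37). Slc40a1 (ferroportin, which exports iron) was at 6.92, 6.64, 6.54 and 6.72 log2 CPM in day 3 libraries, against 4.19, 3.31, 4.01 and 3.35 in day 0 libraries, and Tfrc (the transferrin receptor, which takes iron up) at 7.06, 6.96, 6.91 and 6.95 log2 CPM in day 3 libraries, against 8.31, 8.23, 8.26 and 8.28 in day 0 libraries. Slc40a1 rose by 2.99 ± 0.18 and the change of Tfrc was -1.30 ± 0.06. Steap4, a metal reductase gene, rose by 4.83 ± 0.15 and Lcn2, which binds iron carriers of bacteria, by 3.63 ± 0.23, both at day 0 levels under 0 log2 CPM. Steap1, a relative of Steap4, fell by 2.05 on the log2 scale.

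No hormone was given, and targets of the glucocorticoid receptor are described because the study added corticosterone to the other cells. Of 27 measured 16 rose, 2 fell and 9 were not called (median 0.39). At least 2-fold changes were 4 rises and 1 fall, the fall being -1.22 on the log2 scale. The 4 rises were Lcn2, Klf15, Zfp36 and Rgs2 (1.21 ± 0.14). Tsc22d3 (0.98 ± 0.14) and Fkbp5 (0.39 ± 0.12) rose less, while Per1 (0.00, adjusted p = 0.99) was not called. The receptor gene Nr3c1 was at 8.14, 8.07, 7.95 and 8.21 log2 CPM in day 3 libraries, against 7.87, 7.78, 7.81 and 7.84 in day 0 libraries, a change of 0.27 ± 0.10 (adjusted p = 0.02, and 0.0656 without day 3 replicate 6). Among 20 clock genes 10 rose and 5 fell, and 6 were at least 2-fold higher, Bhlhe40 (1.68 ± 0.08) and Dbp (1.62 ± 0.09) among them. Of the 5 that fell Csnk1d changed most, by -0.48 ± 0.09, and the core gene Arntl changed by -0.10 ± 0.05 (adjusted p = 0.08, and 0.0293 without day 3 replicate 6). Retinoid genes rose in 11 of 17 cases. Dhrs3 (which turns retinal back to retinol) was at 6.22, 6.34, 6.41 and 6.27 log2 CPM in day 3 libraries, against 3.57, 3.28, 3.53 and 3.01 in day 0 libraries, and Stra6 (the receptor for retinol carriers) rose by 1.96 ± 0.12 and Rarb by 1.73 ± 0.13. In the list of TGF-beta, BMP and activin 12 rose, 10 fell and 15 were not called of 37 (13 in each direction with the transcript length trend removed). Tgfb1 rose by 1.86 ± 0.09 while Inhba, Fst and Smad7 (-1.29) fell. Wnt signalling genes had 16 higher and 4 lower of 33, with Fzd4 at 1.51 ± 0.10. Of 23 listed Notch and Hedgehog genes 16 were measured, and all 16 were called, 11 of them higher. Hes1 (2.03 ± 0.11) and the ligand Dll1 (2.13 ± 0.20) rose and Hey2 (-2.72 ± 0.29) and the ligand Jag1 (-1.33 ± 0.10) fell. In IGF and insulin signalling 6 of 18 rose and 8 fell (7 each after rescaling), with Igfbp5 at 2.44 ± 0.22 and Igfbp2 at -1.51 ± 0.10. Igfbp5 was at only -2.87 to -2.67 log2 CPM in day 0 libraries, so the size of its fold is less certain.

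Genes tied to the work of the epididymal epithelium changed in part. Of 27 measured 9 rose, 6 fell and 12 were not called, which is 33.3% higher and 22.2% lower, against 36.5% and 32.7% over all genes. Cftr was at 3.04, 2.81, 2.66 and 2.75 log2 CPM in day 3 libraries, against 5.54, 5.46, 5.55 and 5.48 in day 0 libraries. Aqp1, a water channel, was at 3.58, 3.51, 3.45 and 3.52 log2 CPM in day 3 libraries, against 5.91, 5.92, 5.74 and 5.89 in day 0 libraries. Both channels fell by more than 2 log2 units. Enpep, an aminopeptidase of apical membranes, was at 4.60, 4.68, 4.62 and 4.61 log2 CPM in day 3 libraries, against 2.31, 2.04, 2.30 and 2.22 in day 0 libraries, a rise of 2.41 ± 0.09. Pax8 (-0.11) and Emx2 (0.01), transcription factor genes of the reproductive tract, were not called. Of 33 junction and polarity genes 15 rose and 8 fell. The tight junction genes Cldn2 (2.40 ± 0.20), Tjp3 (2.35 ± 0.31), F11r (0.98 ± 0.05) and Cldn4 (0.86 ± 0.08) rose, and the connexin gene Gja1 fell, as above. Cdh16, a cadherin of tubular epithelia, rose by 1.55 ± 0.05, and Cdh2 (N-cadherin) changed by -0.79 ± 0.04. Of 12 genes of mesenchymal transition 9 fell and 1 rose, with Fn1 (fibronectin) at -1.20 ± 0.10 and Snai2 at -0.97 ± 0.14. Collagen genes had 7 higher (38.9%) and 6 lower (33.3%) of 18 (7 each with the transcript length trend removed). They ranged from Col1a2 (-3.28 ± 0.43) and Col12a1 (-1.84 ± 0.08) to Col4a6 (0.83 ± 0.06). Laminins and matrix glycoproteins had 9 higher (32.1%) and 10 lower (35.7%) of 28 (10 and 9 after rescaling). Matrix proteases with their inhibitors had 10 in each direction of 28 (35.7% each, and 11 higher and 8 lower after rescaling). The shares in the collagen, laminin and protease lists were near those over all genes. Of 14 integrin genes 8 rose and 4 fell, with Itgb5 at 1.13 ± 0.04 and Itgb6 at -1.55 ± 0.07. Genes of extracellular vesicles and tetraspanins had 14 higher (45.2%) and 10 lower (32.3%) of 31, against 36.5% and 32.7% over all genes. Cav1 (caveolin 1) was at -1.56 ± 0.08.

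The vehicle libraries of days 6 and 9, taken after a recovery of 3 and 6 days, show where the day 3 levels stand in the series. They are listed with the same share of ethanol as the day 3 libraries. Their labels do not say whether ethanol was still present during the recovery, or when the medium was changed. The part of ethanol and of medium changes in the later levels was not tested. The libraries of days 6 and 9 are given as levels with no test. The mean over the ribosome biogenesis list was 6.78 ± 0.01, 5.45 ± 0.02, 5.74 ± 0.02 and 5.76 ± 0.03 log2 CPM at days 0, 3, 6 and 9 (SD, n = 4 each). For mitosis it was 6.82, 5.52, 5.66 and 5.74, and for lysosomal genes 6.41, 7.31, 7.20 and 7.18 at the same days. In these lists the step between days 0 and 3 was larger than any later step between neighbouring days. The cornified envelope list was different, with 4.46, 1.73, 3.01 and 3.6 log2 CPM, so that much of its fall was gone by day 9. Sprr1a averaged 10.10, 5.98, 8.58 and 9.71 log2 CPM at days 0, 3, 6 and 9. Ccnd1 averaged 7.80, 3.82, 5.33 and 5.76 log2 CPM, Fosl1 6.19, 3.63, 5.04 and 5.77 log2 CPM and Myc 7.25, 6.06, 7.12 and 7.19 log2 CPM at these days, and each was lowest at day 3. Ldha, with 9.12, 7.89, 9.81 and 10.62 log2 CPM, was lowest at day 3 and highest at day 9, and Tfrc had 8.27, 6.97, 8.0 and 8.30 log2 CPM. S100a7a (3.41, -1.34, -0.81 and -0.50 log2 CPM), Inhba (5.17, 1.83, 1.66 and 1.96 log2 CPM) and Cftr (5.51, 2.81, 2.57 and 1.72 log2 CPM) were still far under their day 0 levels at days 6 and 9. Rises such as those of Agt (4.45, 8.01, 8.11 and 8.14 log2 CPM), Wfdc1 (-1.27, 3.68, 3.90 and 3.5 log2 CPM) and Fos (1.70, 4.98, 5.23 and 5.22 log2 CPM) were still present at days 6 and 9. The interferon-stimulated list went on to higher levels, with 2.70, 3.93, 4.17 and 4.39 log2 CPM, and C3 had 1.42, 5.03, 5.87 and 6.64 log2 CPM.

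**Figure D5:**
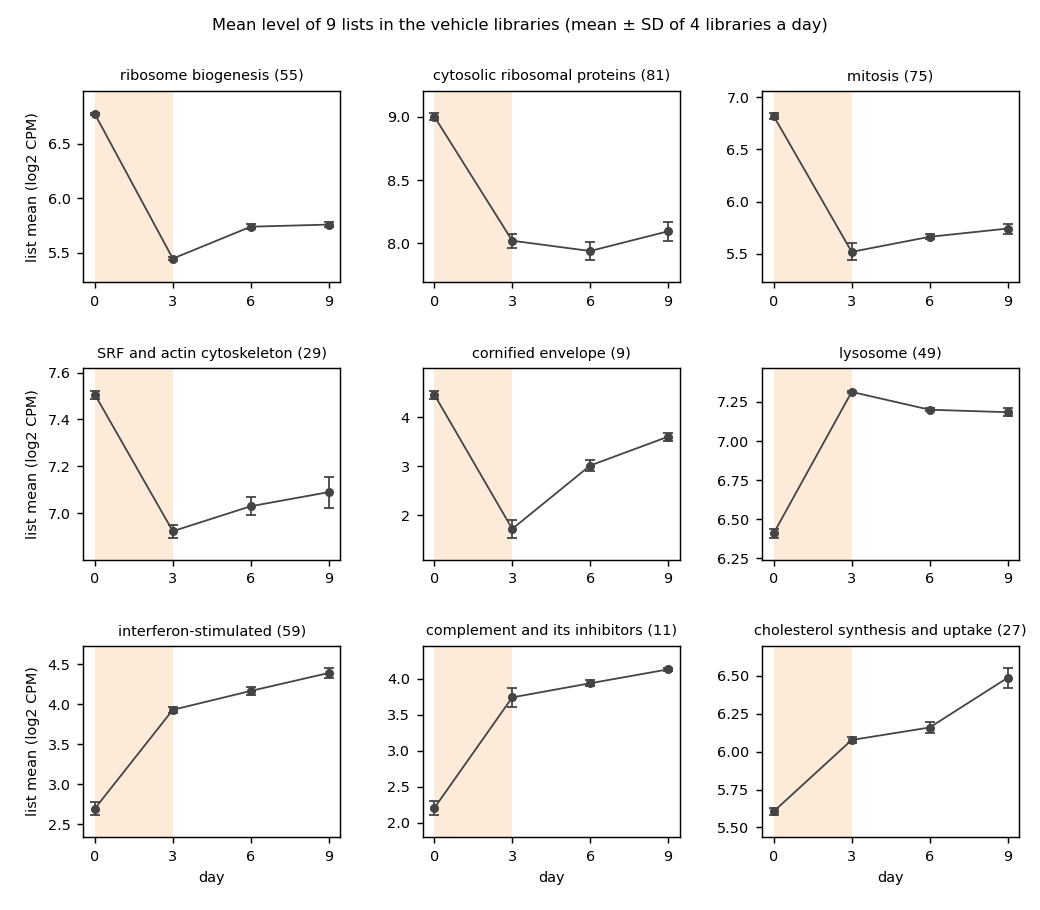
Mean level of 9 gene lists (log2 CPM, vertical axes that do not start at 0) against the day of the vehicle libraries, as the mean ± SD of 4 libraries a day, with the number of genes in brackets and the first 3 days shaded. Ribosome biogenesis, mitosis and lysosome keep most of their first step, while the cornified envelope list has 1.73 at day 3 and 3.6 at day 9.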

How the data were processed

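Libraries were made from total RNA of DC2 cells with a stranded mRNA kit, per the labels' protocols. The deposited values are log2 CPM normalized by the authors, as the table's own name says, and the submitters' processing notes name kallisto, edgeR 3.40.1, limma 3.54.0 and the build mm10, with no role stated. How they were normalized, and with which prior count, is not given in the sources used here. Depth is unknown and no count model was fitted.

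A mean per group was fitted over all 28 libraries in limma 3.58.1 (R 4.3.3, 21 residual degrees of freedom, moderation with an intensity trend), and vehicle day 3 was set against vehicle day 0. Genes needed log2 CPM above 0 in at least 4 libraries, which removed 0 of 13128. 1 entry without a symbol was left out. The text writes rose or fell for adjusted p under 0.05 and gives log2 changes ± SE. In simulated data, the fit called 40, 70, 98 and 100% of 50 genes each with true log2 changes of 0.25, 0.5, 1 and 2. It also called 5 of 12928 unchanged genes. The simulated noise was normal and independent between genes, and the changed genes averaged at least 1 log2 CPM. All other genes had equal means on both days, whereas 69.2% of genes were called in the data. The simulated rates therefore need not hold for the real comparison.

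The members, the 52 gene lists, 10 marker lists and tests were chosen with earlier results of these data known. Named are the 15 largest rises and falls with non-overlapping groups and a mean of at least 1 log2 CPM, the 10 largest with a mean of at least 7, and list members with small p or that a sentence turns on. Predicted gene models were passed over, and some genes are not reported here. Promoter windows are RefSeq's for GRCm38.p6, matched by symbol, and a gene with several windows counts once. Alternatives changed 1 choice at a time, except the replicate block over 8 libraries, which changed 2. Rescaling to an equal sum of CPM, and subtracting a lowess trend over transcript length (span 0.3, GENCODE M21, 12918 genes, 98.4%), were added after seeing the data.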

Additional observations from a re-analysis of the deposited data

Results flagged for a closer look

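In 33 of 496 sets of 4 values (each named gene on each day, and the library shares), 1 library lay apart from the other 3, by Dixon's test of the gap to the nearest other value, and chance gives about 1 in 20. For day 3, replicate 3 stood apart in log2 CPM for Aldh2 (8.34, others 8.44), Atp1b2 (3.25, others 3.43 to 3.46), Ccna2 (7.04, others 6.88 to 6.90), Krt19 (-1.34, others -0.60 to -0.45), Mcm5 (7.02, others 7.11 to 7.12), Mki67 (8.06, others 7.85 to 7.88), Plk1 (5.24, others 4.96 to 5.0) and Smad7 (5.51, others 4.95 to 5.03). For day 3, replicate 4 stood apart in log2 CPM for Actn1 (6.87, others 6.66 to 6.69) and Tap2 (3.48, others 3.88 to 3.96). For day 3, replicate 5 stood apart in log2 CPM for Cd68 (4.79, others 4.84 to 4.85), Sprr2g (5.08, others 5.23 to 5.26) and Vldlr (9.13, others 9.32 to 9.36). For day 3, replicate 6 stood apart in log2 CPM for Ccn2 (6.64, others 6.29 to 6.34), Isg15 (3.52, others 3.28 to 3.3), Mitf (3.18, others 3.28) and S100a6 (9.32, others 9.47 to 9.48).

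For day 0, replicate 3 stood apart in log2 CPM for E2f7 (6.36, others 6.23 to 6.25). For day 0, replicate 4 stood apart in log2 CPM for Ccna2 (8.62, others 8.58), Cdkn1a (5.93, others 5.99), Dnai2 (-0.79, others 0.12 to 0.31), Hexa (5.82, others 5.71 to 5.72) and Scn3a (-1.76, others -0.99 to -0.87). For day 0, replicate 5 stood apart in log2 CPM for Aqp1 (5.74, others 5.89 to 5.92), Igfbp5 (-2.67, others -2.87 to -2.86), Isg20 (2.95, others 3.12 to 3.14), Smad7 (6.15, others 6.44 to 6.5) and Uap1l1 (6.4, others 6.67 to 6.68). For day 0, replicate 6 stood apart in log2 CPM for Ctsa (7.97, others 7.87 to 7.88), Kif11 (7.15, others 7.21 to 7.22), Lce1g (3.95, others 3.34 to 3.44), Lcn2 (-2.07, others -3.33 to -3.15) and Nop56 (8.73, others 8.50 to 8.53).

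The table holds 1 entry with no gene symbol, which no comparison used. It took 0.0567% of CPM on average in day 3 libraries (0.0527 to 0.0594%), against 0.0267 to 0.0289% in day 0 libraries, and what it holds is not given in the sources used here.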

How the results depend on the processing

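The counts of genes higher, lower and at least 2-fold apart stayed within 1.5 times under a stricter filter, median centring, quantile normalization, 8 libraries only, other moderation and weights, and adjusted p under 0.01. The filter removed 0 genes, so the fit without it was the same fit. Its agreement is no test, here or in the counts of values below. With the further demand of a 2-fold change the counts were 1212 higher, 864 lower and 2076 in all. The 2-fold counts depended on the pseudocount: with log2(CPM + 1) 793 genes were at least 2-fold higher, and with log2(CPM + 5) 392 were higher and 521 lower, since a pseudocount shrinks the folds of low genes. Leaving out 1 library at a time gave 4598 to 4637 genes higher, 4107 to 4167 lower, 8705 to 8796 in all, 1196 to 1236 at least 2-fold higher and 861 to 882 at least 2-fold lower. The difference in the mitochondrially encoded share, 2.03 percentage points, was 1.99 to 2.07 without 1 library, where p cannot go below 0.0571, and 1.15 after quantile normalization. With the replicate number as a block 4821 genes were higher and 4324 lower over 28 libraries, and 4960 and 4568 over 8. The deviations of same-numbered libraries correlated at 0.07 to 0.15, and those of differently numbered ones at -0.12 to 0.12. Not every library correlated best with its own number, and whether the numbers pair the samples was not settled. The main fit did not pair them. Median change rose with transcript length, from -0.03 in the shortest 20% of genes to 0.13 in the longest, and removing the trend gave 4562 genes higher and 4444 lower. Of 5838 values of 244 named genes under the alternatives, 5715 kept their side of the threshold and, where called, their direction, 94 lost the call and 24 gained it. After quantile normalization the change was 0.054 for Calr, 0.014 for Pdia3, 0.00 for mt-Co1 and -0.097 for Krt20, and after rescaling to an equal sum it was 0.0072 for mt-Nd1. Quantile normalization fixes a change of 0.00 for any gene that keeps its rank, so the mt-Co1 value is no test of its rise. Of 3072 list counts 244 moved by over 1.5 times. Of 1536 list medians 298 moved by more than the SD of the list mean between libraries of a day. The cause of these shifts was not tested. Depth is unknown, and genes under 0 log2 CPM in 1 group have the least certain folds.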

Other observations

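Some gene families were described after their values were seen, and all measured members that share the family's symbols were counted. Most measured members of several families of protein synthesis and folding, of the proteasome, of nuclear transport and of the tubulins fell. Of 50 translation initiation and elongation factor genes 46 fell and 2 rose (median -0.71), with Eif5a, which helps ribosomes past difficult stretches, at 7.90, 7.93, 7.87 and 7.83 log2 CPM in day 3 libraries, against 9.73, 9.81, 9.76 and 9.70 in day 0 libraries. All 7 genes of the chaperonin TRiC, which folds actin and tubulin, fell at least 2-fold (median -1.27), with Cct3 at -1.52 ± 0.08. Of 34 proteasome subunit genes outside the immunoproteasome 32 fell and none rose (median -0.81), with Psmd14 at -1.02 ± 0.06. Mitochondrial ribosomal protein genes fell in 61 of 78 cases (median -0.46), importins, exportins and Ran in 18 of 22 (median -0.80), and alpha and beta tubulins in 9 of 12, with Tubb3 at -1.52 ± 0.08.

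The other families described had members in both directions or mostly higher. Of 17 genes of the V-ATPase, the proton pump that acidifies lysosomes, 15 rose and 1 fell (median 0.63), and 4 of these are also in the lysosome list. All 5 Ypel genes rose (median 1.77), with Ypel3, which is known to accompany growth arrest, at 6.54, 6.4, 6.76 and 6.39 log2 CPM in day 3 libraries, against 4.15, 4.03, 4.25 and 4.35 in day 0 libraries. Of 9 interferon regulatory factor genes 8 rose and none fell, with Irf7 at 2.0 ± 0.17 and Irf9 at 1.15 ± 0.12, 3 of them also in the interferon list. Of 30 genes of ciliary axonemes and radial spokes 14 rose, 5 fell and 11 were not called, with Dnai2 at 2.32 ± 0.19. Potassium channel genes rose in 12 and fell in 5 of 25 cases, with Kcnj16 at 1.86 ± 0.07. In the S100a family 7 of 9 fell and 2 rose, with S100a10 at -2.09 ± 0.10 and S100a1 at 1.62 ± 0.10.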
